A study of Mus musculus with 2 samples.

Results

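The regions described here were called in the first of 2 replicate Myc ChIP-seq libraries and had no counterpart in the second. A region was a member when it lay on chromosomes 1 to 19 or X and touched no sample 2 region by even 1 bp. There were 4986 such sample 1 only regions among 25543 sample 1 regions on these chromosomes (19.5%), and 25592 and 42619 regions were called in all in samples 1 and 2. The remaining 20557 sample 1 regions, called overlapping below, were set beside them. Membership was chosen from the called positions of both lists, so the count, and every contrast between members and overlapping regions, is a description without a test.

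Both samples were of the same kind: corneal epithelium of K14 DN-Clim mice at postnatal day 7, immunoprecipitated with an antibody to Myc. In this transgenic model a Myc-tagged dominant-negative Clim is driven by the keratin 14 promoter, so the tag is carried by K14-expressing basal cells and not by every cell of the cornea. Neither a control library nor reads were analysed here, the depth behind each region is unknown, and no label says whether the replicates came from different animals. With 1 library on each side, absence from sample 2 and a region missed there at its depth cannot be told apart.

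Clim proteins (Clim2, also named Ldb1, and its relative Clim1, or Ldb2) bridge LIM-homeodomain and LIM-only proteins into larger complexes and reach DNA through partners such as GATA and bHLH factors. The dominant-negative form keeps the part that binds LIM domains but lacks the part through which Clim molecules pair, and so interferes with such complexes. In the cornea, epithelial renewal depends on progenitors in the limbus, and the title of the series places Clim2 in their maintenance. A called region is a stretch of genome in which aligned reads pile up; its width is the extent of the pile and its score is the peak caller's value for it. Whether such a region marks recovery of tagged protein was not tested.

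The limit that defined the members cut through very few regions. The closest members lay 8 bp, 10 bp and 14 bp from a sample 2 region, at chr8:119780648-119780850 (score 78.86), chr1:120182824-120182986 (score 74.86) and chr5:149800635-149800801 (score 148.62), all in mm9. The overlapping regions nearest the limit shared 31, 38 and 47 bases with sample 2 and scored 76.32, 91.52 and 70.15. Only 5 members lay within less than 50 bp of a sample 2 region and 32 within less than 100 bp, while the median overlapping region shared 71 bases. Members near the limit were thus too few to set the values that follow.

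Few members lay within 1 kb of a sample 2 region. The median gap to the nearest sample 2 region was 15.3 kb, with an interquartile range of 5.68 to 36.5 kb. Both the number of members and this gap depended on the rule: a required reciprocal overlap of 50% gave 9522 regions with a median gap of 673 bp, and admitting only sample 2 regions at or above the lowest sample 1 score gave 9842 with a median gap of 23710 bp. Of the members, 75 (1.5%) had a sample 2 region within 200 bp, 328 (6.58%, exact 95% interval 5.91 to 7.30%) within 1 kb and 1894 (38.0%) within 10 kb. A further 228 (4.57%) were more than 100 kb from any. A comparable measure for the overlapping regions is the gap to the nearest sample 2 region that they do not touch, and its median was 14.5 kb. Members and overlapping regions were therefore set in neighbourhoods of nearly the same sample 2 spacing, with medians of 15.3 and 14.5 kb and approximate 95% intervals over regions of 14.7 to 16.1 and 14.2 to 14.8 kb.

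**Figure D1:**
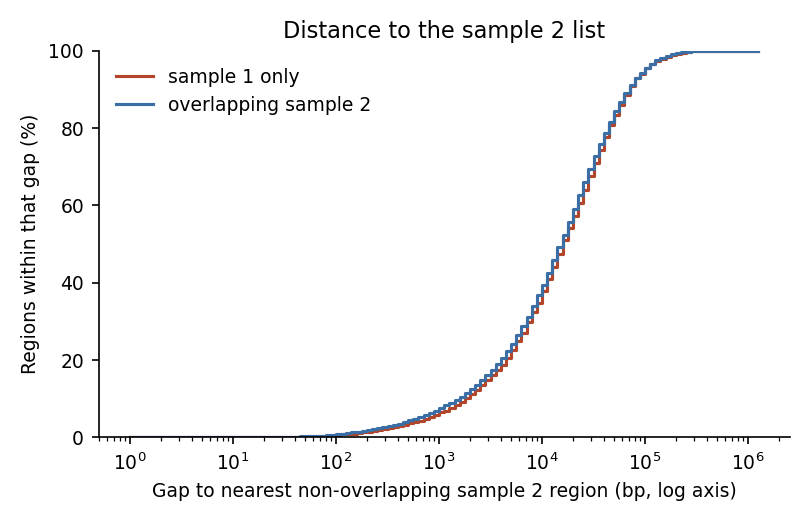
Cumulative share of sample 1 only regions and of overlapping sample 1 regions (vertical axis, percent) within a given gap of the nearest sample 2 region that does not overlap (horizontal axis, bp, log scale). The curves nearly coincide, with medians of 15.3 kb for sample 1 only regions and 14.5 kb for overlapping regions.

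The neighbour found in sample 2 was an ordinary member of that list. It scored a median of 81.92, against 82.14 for the whole sample 2 list on these chromosomes, and was a median of 104 bp wide, against 105 bp. It overlapped some other sample 1 region in 49.5% of cases, against 48.5% of all sample 2 regions. It lay to the right of the member in 50.7% of cases (exact 95% interval 49.3 to 52.1%). Within sample 1 itself, members lay a median of 24.8 kb and overlapping regions a median of 23.8 kb from the next region of their own list.

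The 5 most remote members had scores of 79.4 to 207.35, of which 4 lay above the median of all members, 149.16. The farthest, chr5:95220952-95221021, was 70 bp wide, scored 172.77 and lay 1075.43 kb from the nearest sample 2 region. The next were chrX:88399776-88399847 (score 207.35, gap 589438 bp) and chrX:113738962-113739115 (score 79.4, gap 543284 bp). They were followed by chr14:6973686-6973755 (score 207.35, gap 454743 bp) and chrX:37319730-37319801 (score 156.26, gap 394157 bp). Of these 5 regions 3 were on X, where both lists are sparse and the median gap of members was 25.8 kb.

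Width separated members from overlapping regions mainly at the very narrow end. The median width was 81 bp in members and 83 bp in overlapping regions, and the narrow class below 105 bp held 58.8% of members and 63.8% of overlapping regions. These close summaries cover a difference in shape. Widths of 72 bp or less made up 25.7% of members (1282 regions, exact 95% interval 24.5 to 26.9%) and 14.9% of overlapping regions (14.5 to 15.4%). The share of sample 1 regions without a partner was highest at the shortest widths: a single 67 bp region aside, it was 41.0% at 68 bp (185 of 451), 30.8% at 70 bp (284 of 923), 23.6% at 72 bp, 15.8% at 75 bp and 12.4% at 80 bp. It was 8.54% over widths of 86 to 90 bp (77 of 902), and higher again at 13.5% over 91 to 104 bp and at 21.9% over 105 to 129 bp. Whether the shorter length open to an overlap has a part in this was not tested.

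**Figure D2:**
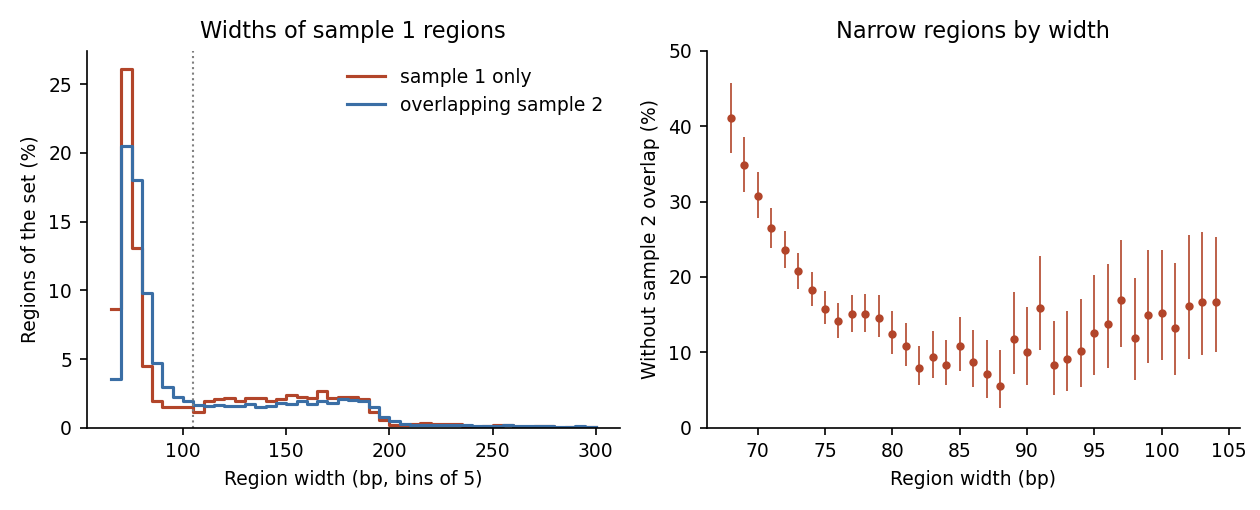
Left, widths of sample 1 only and overlapping regions in 5 bp bins (percent of each set, with the narrow and wide classes divided at 105 bp by the dotted line). Right, share of sample 1 regions without a sample 2 overlap at each width from 68 to 104 bp, with exact 95% intervals; it is 41.0% at 68 bp and 12.4% at 80 bp.

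Scores of members were lower as a whole. The median score was 149.16 in members (interquartile range 97.9 to 192.4) and 172.77 in overlapping regions (128.8 to 232.1). A score under 100 was held by 26.2% of members and 12.6% of overlapping regions, and a score of 300 or more by 4.21% and 10.8% of them. Among the wide regions the median was 91.52 in members and 117.15 in overlapping regions, and among the narrow regions it was 176.29 and 197.97.

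The relation with score had a different course in the width classes. Of the wide regions, 36.9% were members in the lowest decile of scores, 24.3% in the next, 12.1% in the fifth and 5.48% in the highest. Of the narrow regions, 29.3% were members in the second decile, 24.5% in the fifth, 16.3% in the eighth and 9.13% in the highest. From the third to the ninth decile the exact 95% intervals of the classes did not overlap. In the fifth decile, with scores of 151.6 to 167.85, 503 of 2056 narrow regions and 63 of 520 wide regions were members (24.5%, 22.6 to 26.4%, and 12.1%, 9.44 to 15.2%). The narrow share of the fifth decile was close to the 24.3% of wide regions in the second, whose scores were 89.15 to 110.81.

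**Figure D3:**
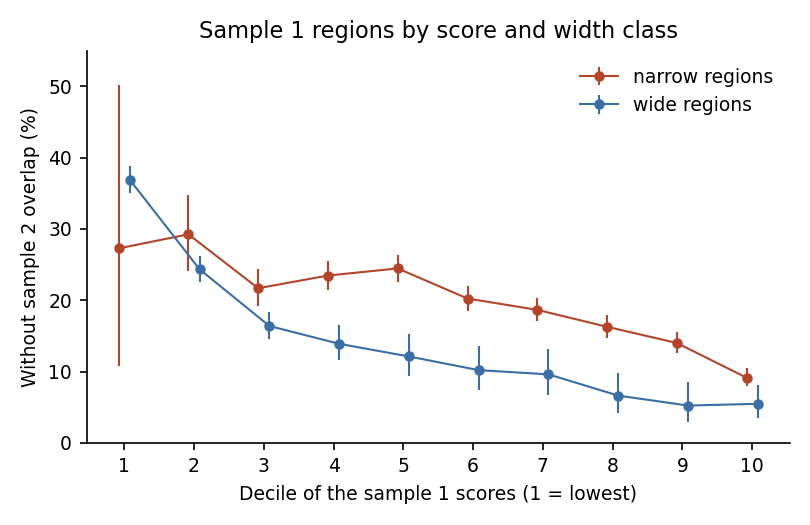
Share of sample 1 regions without a sample 2 overlap (vertical axis, percent, with exact 95% intervals) in each decile of the sample 1 scores, for narrow regions and for wide regions. The fifth decile has 24.5% for narrow and 12.1% for wide regions.

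Width was also set against membership at single scores, where the share of members fell from 68 to 80 bp at 2 of the 3 most frequent values. The most frequent score of the list, 172.77, was held by 315 regions, all narrow, of which 85 (27.0%) were members. Among them, members were 53 of 152 at 68 to 70 bp (34.9%, exact 95% interval 27.3 to 43.0%), 28 of 117 at 71 to 75 bp (23.9%, 16.5 to 32.7%) and 2 of 24 at 76 to 80 bp (8.33%, 1.03 to 27.0%). At 207.35, the next most frequent score, the shares were 25 of 72, 13 of 57 and 2 of 24 for the same widths. At 81 to 104 bp they were 2 of 22 for a score of 172.77 and 0 of 10 for 207.35. At 160.19 the share did not fall in order, with 25 of 74, 21 of 59 and 2 of 14 for widths up to 80 bp and 3 of 9 at 81 to 104 bp. The exact 95% intervals of the last 2 were 1.78 to 42.8% and 7.49 to 70.1%. These bins are too small to say whether the relation was absent at this score. Over deciles of the score, regions of 68 to 72 bp held 30.6% members in the fifth decile and 28.8% in the eighth, and regions of 78 to 104 bp held 16.5% and 9.38%. In the third and the ninth decile the share was 32.3% and 24.9% for the narrowest regions, and 18.3% and 9.67% for the widest of the narrow class.

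Scores recurred exactly at many values. The 22 values held by at least 100 regions each covered 3026 regions, 96.8% of them narrow, and 24.9% of these were members (exact 95% interval 23.4 to 26.5%). The 3476 regions with a score of their own were mostly wide, and 15.6% of them were members (14.4 to 16.8%). Between these, members were 18.2% of the 12869 regions whose score was held by 10 to 99 regions and 21.8% of the 6172 whose score was held by 2 to 9, so the share did not follow recurrence in order. The 22 values held by at least 100 regions each accounted for 15.1% of members and 11.1% of overlapping regions.

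Despite the lower scores, some members were among the strongest regions of sample 1. They included 6 of the 100 highest-scoring regions on these chromosomes (6.0%, exact 95% interval 2.23 to 12.6%). Among the 1000 highest they were 74 (7.40%, 5.85 to 9.20%). Both shares were below the 19.5% of the whole list. The 6 in the first 100 were all wide, but no narrow region of either set scored above 662.45. Of the 74 in the first 1000, 58 were narrow. Narrow regions were also 2124 of the 2544 in the highest decile of the whole list, so neither width is particular to members. The first was chrX:139917505-139917663 with a score of 1305.34, 43278 bp from the nearest sample 2 region. It was followed by chr12:3109835-3110162, with a score of 1242.64 and a gap of 16563 bp. The third and the fourth were chr17:36621594-36622026, with a score of 790.42 and a gap of 21615 bp, and chr13:77578134-77578343, with a score of 770.05 and a gap of 19928 bp. The list continued with chr15:74916663-74917506, 844 bp wide with a score of 739.62, and chr9:3025422-3025693, with a score of 724.02 and a gap of only 764 bp. The seventh was chr13:3372279-3372598, with a score of 545.76. The last of the first 10 were narrow: chr1:74188237-74188322 with a score of 541.22, chr16:18346311-18346402 with 522.2 and chr16:16958970-16959058 with 516.03. No sample 2 neighbour of these 10 regions scored above 173.41.

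Widths of 300 bp or more were found in 26 of the 4986 members and in 71 of the 20557 overlapping regions. The only member above 1 kb was chr11:3093013-3094382, which was 1370 bp wide with a score of just 140.33 and lay 88249 bp from the nearest sample 2 region. A further one of the widest, chr11:3099498-3100012, stood close to it. Another pair, chrX:121307169-121308020 and chrX:121308065-121308575, stood side by side and scored 473.84 and 82.08. Together the members covered 551.67 kb and the overlapping regions 2245.18 kb.

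Along the genome the members followed the overlapping regions. They averaged 1.94 per Mb, with the length of a chromosome taken between its outermost called regions. Chromosome 11 had the highest density, with 332 members (2.79 per Mb, 1.44 times its share of the spanned length, exact 95% interval 1.30 to 1.60). Chromosome 5 had 387 (2.59 per Mb) and chromosome 19 had 141 (2.42 per Mb). The lowest density was on X, with 138 members (0.855 per Mb, 0.441 times its share of length, 0.372 to 0.520). Among the autosomes it was lowest on chromosome 12, with 192 members (1.62 per Mb). The same ratios for the overlapping regions were 1.34 on chromosome 11 and 0.459 on X. Over the 19 autosomes, the density of members went with that of overlapping regions (Pearson's r 0.893, Spearman's rho 0.872), a description of chromosomes that share the same library and the same reads.

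The share of each chromosome's sample 1 regions that were members varied little. It was 20.9% on chromosome 2, 18.9% on X and 17.1% on chromosome 15. Chromosome 15 was the only one of the 20 whose exact 95% interval (15.0 to 19.46%) did not reach the 19.52% of the whole list, a narrow margin. These intervals treat regions as independent and cover counting error only.

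**Figure D4:**
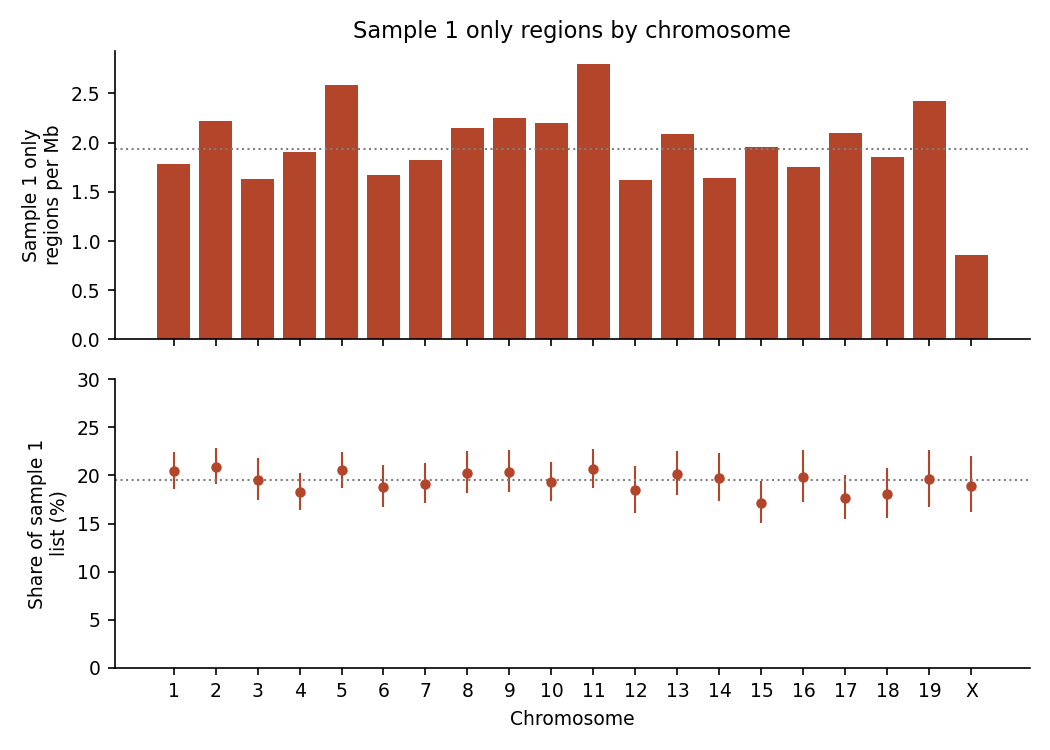
Top, sample 1 only regions per Mb of spanned length on each chromosome, with the density over all chromosomes as a dotted line. Bottom, share of each chromosome's sample 1 regions that had no sample 2 overlap, with exact 95% intervals and the 19.5% of the whole list as a dotted line; densities range from 0.855 per Mb on X to 2.79 per Mb on chromosome 11, while the shares stay between 17.1% and 20.9%.

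Of the 4986 members, 3193 had an overlapping region, or the end of the list, on either side, and 613 runs held 2 members in a row. Members were 19.5% of the list, and at such a share most would stand singly anyway. The count of single members is therefore not read as a trait of the members. The longest run stood apart. At the start of chromosome 9, 27 sample 1 regions in succession from 3000354 to 3034270 had no partner. Runs of 8 on X, from 121283696 to 122552568, and of 7 on chromosome 2, from 181633082 to 181666044, came next.

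In the window chr9:3000001-3100000, 29 of 31 sample 1 regions were members, while the next most crowded window of 100 kb held 7. The members there were 92 to 359 bp wide with a median of 177 bp, and 28 of the 29 were wide. Their scores ran from 79.19 to 724.02 with a median of 180.79, above the median of 91.52 for all wide members. Sample 2 was not empty in this window: it had 10 regions, none above a score of 181.22, and the members lay a median of 1169 bp from one of them. Without this window chromosome 9 had 18.7% members in place of 20.4%, and 2.02 per Mb in place of 2.26.

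On chromosome 2, all 7 sample 1 regions of chr2:181600001-181700000 were members, with scores of 133.89 to 253.18, and sample 2 had no region in the window. On X, chrX:121200001-121300000 held 6 members among 7 sample 1 regions, and chrX:120100001-120200000 held 5 among 6. Over the 4 Mb from 119000001 to 123000000 on X, 26 of 34 sample 1 regions were members (76.5%, exact 95% interval 58.8 to 89.3%), and 32 sample 2 regions lay in it. Over the rest of X, 112 of 695 were members (16.1%, 13.5 to 19.1%). This stretch was chosen after its runs had been seen. In windows of 1 Mb, the first of chromosome 9 held 31 members, and those from 30000001 and from 116000001 on chromosome 5 held 12 each, among 21 and 35 sample 1 regions.

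The most crowded windows of 100 kb held mostly wide members. In the 4 windows of 100 kb with 5 or more members, 45 of 47 were wide (95.7%, exact 95% interval 85.5 to 99.5%), and 17 of 18 were wide without the chromosome 9 window. That window alone held 29 of the 47. The interval takes neighbouring regions as independent, so it is too narrow for a statement about crowded windows. Members alone in their window were wide in 40.4% of cases (1524 of 3772), and 41.2% of all members were wide. With 3 members in a window 54 of 153 were wide (35.3%), and with 4 members 15 of 28, so by window count the high share was seen at 5 or more. Those windows lay at the start of chromosome 9, near the end of chromosome 2 and in the 4 Mb stretch of X described above. Over that whole stretch 22 of 26 members were wide (84.6%), against 42 of 112 (37.5%) on the rest of X. Crowding and place therefore cannot be told apart here. Crowded windows of 1 Mb differed in their wide share: those on chromosome 5 from 30000001 and from 116000001 held 6 and 4 wide members among 12 each. Wide members were 28 of 31 on chromosome 9 from 3000001, 9 of 10 on X from 120000001 and 6 of 9 on chromosome 2 from 181000001. They were 4 of 11 on chromosome 1 from 74000001, 5 of 11 on chromosome 8 from 123000001 and 3 of 10 on chromosome 11 from 117000001. On chromosome 19 from 45000001 they were 4 of 9, and on chromosome 2 from 70000001 they were 3 of 9.

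**Figure D5:**
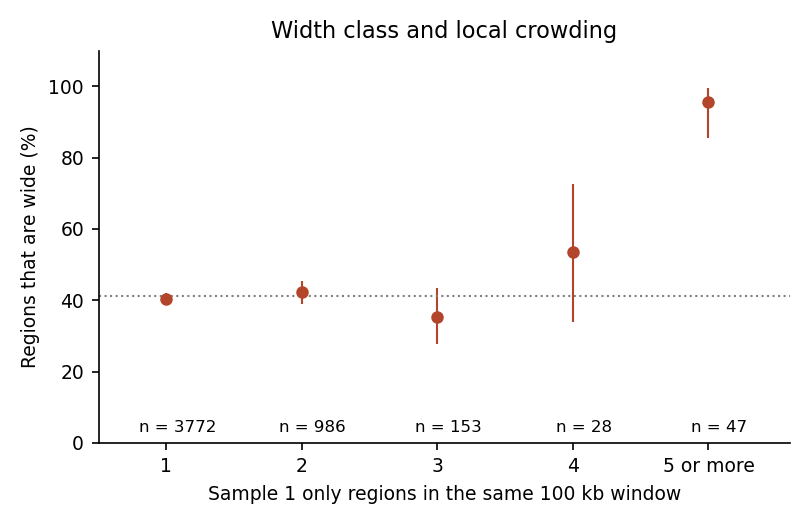
Share of sample 1 only regions that are at least 105 bp wide (vertical axis, percent, with exact 95% intervals), by how many sample 1 only regions share their 100 kb window. The dotted line is the 41.2% of all sample 1 only regions, and the 47 regions in windows of 5 or more stand at 95.7%. Those 47 come from only 4 windows, on chromosomes 2, 9 and X, and the intervals take regions as independent, so the last interval is too narrow.

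Pooled over chromosomes, the ends other than the start of chromosome 9 gave shares of members near that of the whole list. Only the shares were compared, not scores or widths. Some members named above for score or width also lay near a chromosome start: chr12:3109835-3110162, chr13:3372279-3372598, chr11:3093013-3094382 and chr11:3099498-3100012. Within 1 Mb of the first called region of a chromosome, 69 of 216 sample 1 regions were members (31.9%), and 38 of 183 without chromosome 9 (20.8%). Within 1 Mb of the last called region it was 40 of 186 (21.5%). Single ends could differ from these pooled shares. In the window chr2:181000001-182000000, at the end of chromosome 2, 9 of 19 sample 1 regions were members (47.4%). The run of 7 members on chromosome 2 named above lay in this window. Gene content and sequence of the members were not analysed here, because the gene and promoter tables at hand use the GRCm38 build and the lists use mm9.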

How the data were processed

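ChIP-seq of corneal epithelium was described from 2 deposited lists, 1 per replicate, in mm9. Bowtie 0.12.7 and bedtools 2.11.2 appear, with no settings, in the submitters' processing notes, and the reads of 2 lanes were combined for each replicate, per the labels' protocols. Region names carry the prefix MACS, while the caller's version, thresholds and control were not given in the sources used. The authors deposited a score from the peak caller for each region, with no statement of its meaning, so it was mainly used within a list. The exception was the alternative that limited sample 2 by the lowest sample 1 score. Where sample 2 scores stand beside members, no common scale is known.

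Overlaps, gaps (bases between nearest edges) and counts were computed with numpy 2.4.6, pandas 2.3.3 and scipy 1.17.1, and the member count was checked with bedtools 2.31.1. This code was tested on simulated data with planted overlaps and gaps. Shares carry exact (Clopper-Pearson) 95% intervals, and medians order-statistic intervals; both cover counting error over regions only, taken as independent. Narrow and wide were divided at 105 bp, the emptiest 5 bp bin between the populations. Score deciles kept tied scores together. Coordinates count from 1. Named were the 10 highest-scoring members, the 5 farthest and 5 widest, the 3 on each side of the overlap limit, and the 3 fullest windows of 100 kb and of 1 Mb; any other region in the text was picked with its values in view. The members and these rules were chosen with earlier results of these data known. Alternatives were other overlap rules, score limits, chromosomes and expectations; depth per sample is unknown. Regions at gene starts had been planned and were left out, since they need an mm9 annotation.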

Additional observations from a re-analysis of the deposited data

Results flagged for a closer look

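Outside the chromosomes used above, sample 1 also had regions without a sample 2 overlap, and no control library gives a level for them. On chromosome Y these were 20 of 44 sample 1 regions, 75 to 2243 bp wide with scores of 70.09 to 963.0, where sample 2 had 80 regions. On the mitochondrial genome they were 4 of 5 sample 1 regions, 389 to 2408 bp wide with scores of 73.03 to 284.72, where sample 2 had 1 region.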

How the results depend on the processing

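Of 50 recomputed values, 28 stayed within the interval of the reported value (for counts, within 1.5 times) and 22 did not. With a reciprocal overlap of at least 50%, 9522 regions were without a partner (37.3%), with a median width of 98 bp, 51.3% narrow, a median distance of 673 bp and 51.1% within 1 kb, by construction since all of the added regions touch a sample 2 region. With sample 2 limited to the lowest sample 1 score or above, which assumes 1 score scale, there were 9842 (38.5%), 61.5% narrow, with a median score of 154.6, a median distance of 23710 bp and 4.35% within 1 kb. In the upper 50% of sample 1 by score there were 1862 (14.5%), with a median width of 74 bp, 92.7% narrow, a median score of 209.5, a median distance of 16196 bp and 5.16% within 1 kb. Counting gaps of up to 200 bp as overlap left 5.15% within 1 kb, and a boundary of 100 bp gave 57.3% narrow. Against its share of all sample 1 regions in place of length, X held 0.970 times the expected number of members. Adding chromosome Y and the mitochondrial genome, measuring between midpoints, or leaving out the first 100 kb window of chromosome 9, an alternative chosen after seeing the data, moved none of the values recomputed under them beyond those limits. Leaving out a replicate was not possible, since membership needs both lists, and the alternative at gene starts was not run. No paired analysis was possible because the data hold 1 group. Depth is unknown for both lists.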
